A study of Homo sapiens with 9 samples.

Results

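ELK1, ELK3, ELK4, SRF, MRTFA, MRTFB and MYOCD encode the ternary complex factors, serum response factor and its myocardin-family coactivators. They were taken as every probe set annotated to exactly 1 of these 7 genes, which gave 26 of the 54675 probe sets of the array. All 7 genes lay at or above the filter on dim probe sets, among 12616 genes tested of 19775 with such a probe set. SRF is a transcription factor that binds a DNA element called the CArG box. The ternary complex factors ELK1, ELK3 and ELK4 are ETS proteins that bind beside SRF and are activated when MAP kinases phosphorylate them, which links growth factor signals to early genes. MRTFA and MRTFB are SRF coactivators that monomeric actin holds back until it is polymerized, and they compete with the ternary complex factors for SRF. MYOCD, myocardin, is the relative known for driving smooth and cardiac muscle genes. MED23 is a subunit of Mediator that the activation domain of phosphorylated ELK1 can contact.

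RNA of A549, an established human lung adenocarcinoma line grown in medium with serum and given no further treatment, was hybridized to 9 Affymetrix arrays. In 3 samples the cells carried RNA interference oligos against MED23 (si-Med23), in 3 they carried oligos against ELK1 (si-Elk1), and in 3 a control oligo (si-Ctrl). Each knockdown has oligos A, B and C as its 3 replicates, described as separate lines, so the spread within a knockdown includes differences between oligos. The controls are replicates 1, 2 and 3 of 1 oligo. The labels do not say that these were separate cultures, so the p-values below measure the spread among these samples alone, and part of it may be technical. Values below are log2(signal + 1), with fold changes on the same scale, and the number of arrays limits their precision. Since RNA was taken from bulk cultures, fewer cells that express a gene and less of its RNA per cell cannot be told apart. Differences were tested with limma, and a gene passed at a Benjamini-Hochberg adjusted p under 0.05 over the 12616 genes.

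RefSeq promoter windows of 250 bases before to 50 after a start site (GRCh38.p14) were found for 6 of the 7 genes, 13 windows in all. They were searched on both strands for the CArG box (the SRF element, CC, 6 of A or T, GG) and for CCGGAAGT, an ETS core, and the motifs share no bases in these windows. The SRF window holds a pair of CArG boxes, which start at positions -30 and -10 relative to the start site, and the ELK4 window holds CCGGAAGT from position -22. The other member windows hold neither. These are the windows of the member that encodes the CArG-binding factor and of the member with the largest fall in si-Med23, and they are shown with the motifs in capitals. The SRF window is chr6:43171019-43171318 on the plus strand and the ELK4 window chr1:205631962-205632261 on the minus strand, each written 5′ to 3′ along its gene.
SRF: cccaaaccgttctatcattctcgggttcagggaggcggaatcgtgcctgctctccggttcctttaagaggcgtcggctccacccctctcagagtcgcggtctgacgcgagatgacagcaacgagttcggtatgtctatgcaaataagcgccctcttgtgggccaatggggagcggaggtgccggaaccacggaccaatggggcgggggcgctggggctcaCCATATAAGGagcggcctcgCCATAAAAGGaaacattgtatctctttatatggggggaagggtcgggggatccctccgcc
ELK4: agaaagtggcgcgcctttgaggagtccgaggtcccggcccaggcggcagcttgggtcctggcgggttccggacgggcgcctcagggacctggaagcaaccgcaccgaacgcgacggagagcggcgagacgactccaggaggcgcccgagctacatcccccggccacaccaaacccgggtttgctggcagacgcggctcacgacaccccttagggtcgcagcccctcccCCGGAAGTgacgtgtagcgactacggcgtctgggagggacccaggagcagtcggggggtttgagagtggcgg
Of 35116 promoter windows of this length in the table, 1.29% hold a CArG box and 4.14% hold CCGGAAGT. A match describes the letters only, and binding was not measured here.

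The scaling bears on every direction below. Each array had a 2% trimmed mean signal of 500, while its median signal lay between 64.9 and 88.2. The 24 poly-A spike probe sets, for transcripts added to the RNA before labelling, averaged 9.22 ± 0.12 (SD, n = 3) in si-Med23, 8.25 ± 0.29 in si-Elk1 and 7.61 ± 0.20 in si-Ctrl. Scaling on them would lower the log2 fold changes of all genes by 1.61 in si-Med23 and by 0.64 in si-Elk1, and scaling on the 18 hybridization controls by 0.50 and 0.18. Centring each array on its median would raise those of si-Med23 by 0.23 and lower those of si-Elk1 (-0.13). The array of si-Elk1 oligo C stood apart, with an array weight of 0.224 against 0.657 to 2.12 for the other arrays, so results that rest on it are given with and without it. All 6 epithelial markers (EPCAM, CDH1 and 4 keratin genes) were above the filter. Their summed signal was 84563 to 114811 in si-Med23, 65665 to 84677 in si-Elk1 and 62921 to 69951 in si-Ctrl, with 4 of 6 called higher in si-Med23, where 20.3% of all tested genes were. In si-Elk1 1 of the 6 was called higher, CDH1 (1.04 ± 0.21, limma adjusted p = 0.0368), and between the knockdowns 2 were higher in si-Med23. Of the 4 smooth and cardiac muscle markers 1 was above the filter, ACTC1, with summed signals of 193.2 to 274.1, 243.1 to 378.9 and 161.3 to 349.8 in the same groups. Of 4 haematopoietic markers 3 passed the filter and of 5 endothelial markers 1 did, and PTPRC lay below it. Summed haematopoietic signals were 353.2 to 447.4 in si-Med23, 475.3 to 736 in si-Elk1 and 381.8 to 640.5 in si-Ctrl. Of these markers CD3E was lower in si-Med23 than in si-Elk1 (-2.49 ± 0.69, limma adjusted p = 0.0365). Its si-Med23 mean of 4.94 ± 1.57 (SD, n = 3) lay under the filter level of 6.05, so this difference involves dim signal. The part of any other cell type in the results was not tested.

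The targeted member was examined first. ELK1 (probe set 203617_x_at) read 7.07, 7.15 and 7.83 with si-Elk1 oligos A, B and C, against 9.36, 9.61 and 9.29 in si-Ctrl. All si-Elk1 readings were under all control readings, and on this probe set oligo C left the most signal. The log2 fold change was -2.07 ± 0.26 (SE, n = 3 arrays per group), or 23.8% of control (limma adjusted p = 0.00684). With the mean of its 3 probe sets the value was smaller, -1.33 (adjusted p = 0.0473). ELK1 ranked 8 among all tested genes by the size of its fall. In si-Med23 the same probe set read 9.98, 10.36 and 9.54, a range that overlapped the controls, with a log2 fold change of 0.54 (95% interval -0.04 to 1.12, adjusted p = 0.123). A further ELK1 probe set, 210376_x_at, read 7.47, 7.17 and 7.44 in si-Elk1, against 8.41, 8.39 and 8.52 in si-Ctrl, also with no overlap. There oligo A left the most signal, so the order of the oligos differed between the probe sets. The last, 210850_s_at, lies below the filter level. MED23 (218846_at) read 6.79, 6.19 and 7.06 in si-Med23, 8.87, 9.02 and 8.18 in si-Elk1, and 9.27, 9.05 and 9.08 in si-Ctrl. It fell in si-Med23 (log2 fold change -2.46 ± 0.27, adjusted p = 0.00184), while in si-Elk1 its change of -0.44 did not pass (adjusted p = 0.325).

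**Figure D1:**
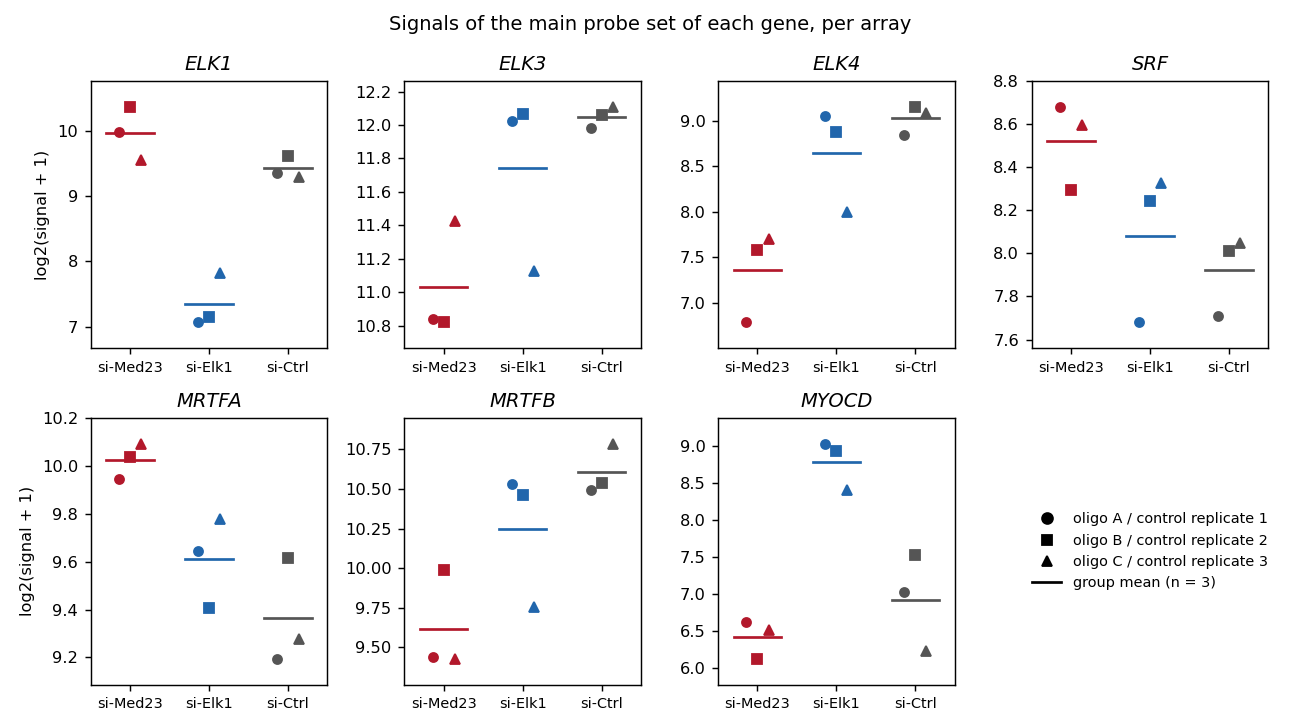
Log2(signal + 1) of the 7 member genes on each array, from the probe set that represents the gene, with si-Med23 and si-Elk1 to the left of si-Ctrl, 1 point per array and a line at the group mean. ELK1 is lowest in the 3 si-Elk1 arrays and MYOCD highest there, while ELK3, ELK4 and MRTFB are lower in all si-Med23 arrays than in the controls.

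When MED23 was reduced, 5 of the 7 genes passed the test. ELK3, ELK4 and MRTFB fell, and SRF and MRTFA rose, although the directions of SRF and MRTFA turn negative under poly-A spike scaling. In the same comparison 39.8% of all tested genes passed, 20.3% higher and 19.5% lower, and the members' count is to be read beside that share. The members' median log2 fold change was -0.51, beside 0.09 for all genes tested. By contrast, when ELK1 was reduced 2 of the 7 passed, ELK1 itself lower and MYOCD higher, in a comparison where 4.26% of genes passed, 3.07% higher and 1.19% lower. There the members' median, which includes the targeted ELK1, was -0.31, beside 0.05 for all genes. That median is the value of ELK3, whose change was -0.0047 without the array of si-Elk1 oligo C.

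Among the ternary complex factors, ELK4, a close relative of ELK1, had the largest change in si-Med23. It (225159_s_at) read 6.79, 7.59 and 7.70 with si-Med23 oligos A, B and C, 9.06, 8.87 and 8.004 with the si-Elk1 oligos, and 8.85, 9.16 and 9.08 in si-Ctrl. The 3 si-Med23 arrays were the lowest of the 9. ELK4 fell in si-Med23 to 31.4% of control (log2 fold change -1.67 ± 0.32, SE, n = 3 per group; limma adjusted p = 0.00544), and kept the call when any 1 array was left out. In si-Elk1 the change was -0.38 (95% interval -1.10 to 0.34, adjusted p = 0.463). Averaging the 7 ELK4 probe sets ended the si-Med23 call (-0.58, adjusted p = 0.103), and 3 of those 7 lie below the filter level.

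ELK3, a ternary complex factor that can also repress transcription, was lower in si-Med23 as well. Its probe set 221773_at read 10.84, 10.82 and 11.43 in si-Med23, 12.02, 12.07 and 11.13 in si-Elk1, and 11.98, 12.06 and 12.11 in si-Ctrl. The controls lay close together, and all si-Med23 arrays were below them. ELK3 fell in si-Med23 (-1.02 ± 0.27, adjusted p = 0.0172, 49.3% of control), and in si-Elk1 its change was -0.31 (95% interval -0.92 to 0.30, adjusted p = 0.484). This fall no longer passed without si-Ctrl replicate 3 (adjusted p = 0.0545), without si-Med23 oligo A (0.0537) or B (0.0562), and with the mean of both ELK3 probe sets (-0.54, adjusted p = 0.188). The other ELK3 probe set, 206127_at, did not follow, with 6.83, 7.51 and 7.36 in si-Med23, against 7.25, 7.27 and 7.35 in si-Ctrl.

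SRF, the DNA-binding partner of all the other members, read 8.68, 8.29 and 8.60 in si-Med23, 7.68, 8.24 and 8.33 in si-Elk1, and 7.71, 8.01 and 8.05 in si-Ctrl (202401_s_at). Its si-Med23 arrays did not overlap the controls, and its si-Elk1 arrays did. SRF rose 1.52-fold in si-Med23 with the deposited scaling (log2 fold change 0.60 ± 0.20, adjusted p = 0.0412), and the value turned to -1.01 with poly-A spike scaling and to 0.10 (adjusted p = 0.729) with hybridization control scaling. The call held in only 3 of the 9 fits that left out 1 array: it was lost without si-Ctrl replicate 1 (adjusted p = 0.128), 2 (0.0718) or 3 (0.0708), without si-Med23 oligo A (0.114) or C (0.0985), and without si-Elk1 oligo B (0.0511). With no filter on dim genes it did not pass either (0.0934). In si-Elk1 the log2 fold change of SRF was 0.16 (95% interval -0.29 to 0.61, adjusted p = 0.638). The other SRF probe set, 202400_s_at, lies below the filter level.

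The actin-regulated coactivators differed in sign in si-Med23 with the deposited scaling. MRTFA (212748_at) read 9.95, 10.04 and 10.09 in si-Med23, 9.64, 9.41 and 9.78 in si-Elk1, and 9.19, 9.62 and 9.28 in si-Ctrl. All si-Med23 arrays lay above all controls. MRTFA rose 1.58-fold there (0.66 ± 0.15, adjusted p = 0.0105), a call kept when any 1 array was left out, but the value was -0.95 with poly-A spike scaling and did not pass with hybridization control scaling (0.17, adjusted p = 0.329). In si-Elk1 its change was 0.25 (95% interval -0.10 to 0.59, adjusted p = 0.330).

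MRTFB, the related coactivator, read 9.44, 9.99 and 9.43 in si-Med23, 10.53, 10.46 and 9.75 in si-Elk1, and 10.49, 10.54 and 10.79 in si-Ctrl (218259_at). All si-Med23 arrays lay below all controls. MRTFB fell in si-Med23 to 50.4% of control (-0.99 ± 0.24, adjusted p = 0.0130), and the call was kept when any 1 array was left out. In si-Elk1 its change was -0.36 (95% interval -0.90 to 0.19, adjusted p = 0.372). ELK3, ELK4 and MRTFB were lower in si-Med23 under each scaling tried.

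MYOCD was the member whose level differed from the controls in si-Elk1 in the direction opposite to ELK1. Its probe set 237206_at read 9.04, 8.93 and 8.41 with si-Elk1 oligos A, B and C, against 7.02, 7.53 and 6.23 in si-Ctrl. Every si-Elk1 array lay above every control, although the controls spread widely. MYOCD rose 3.65-fold in si-Elk1 (1.87 ± 0.32, adjusted p = 0.0207), rank 60 among all tested genes by the size of its rise. The call was lost without si-Ctrl replicate 1 (adjusted p = 0.0596), without si-Elk1 oligo A (0.0646) or B (0.0585), and with no filter on dim genes (0.0715). In si-Med23 the probe set read 6.62, 6.12 and 6.52, and its change of -0.51 did not pass (95% interval -1.24 to 0.23, adjusted p = 0.234). A second MYOCD probe set, 229339_at, read 7.86, 7.90 and 7.45 in si-Elk1, against 6.83, 6.07 and 6.79 in si-Ctrl, again with no overlap. Of the muscle genes that myocardin is known to drive, ACTA2, the smooth muscle actin gene, had a log2 fold change of 0.65 ± 0.18 in si-Elk1 that did not pass (adjusted p = 0.0789). In si-Med23, where MYOCD did not rise, ACTA2 had a similar value that passed (0.59 ± 0.18, limma adjusted p = 0.0325), negative under poly-A spike scaling. The cardiac actin gene ACTC1 had a value of 0.80 ± 0.35 in si-Elk1 (adjusted p = 0.197) and of -0.07 in si-Med23 (0.887). Further muscle genes, chosen after their values were seen, did not share 1 direction. TAGLN, transgelin, had 1.13 ± 0.32 in si-Elk1 (adjusted p = 0.0801) and 0.50 ± 0.32 in si-Med23 (0.240), and passed in neither. The dim CNN1, calponin, was not tested and averaged 4.56 ± 0.96 in si-Elk1, against 5.65 ± 0.67 in si-Ctrl (SD, n = 3 each). The untested ACTG2 and MYH11 also had lower means in si-Elk1, 5.44 and 5.62, against 5.90 and 5.84 in si-Ctrl. DES, also untested, differed little, with 4.88 against 4.93. The untested MYL9 and MYH6 had higher means in si-Elk1, 6.59 and 4.65, against 4.81 and 3.88 in si-Ctrl. Every si-Elk1 reading of MYL9 lay above every control, but so did every si-Med23 reading (mean 6.32). The MYH6 mean in si-Elk1 rests on oligo C, which read 6.84.

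**Figure D2:**
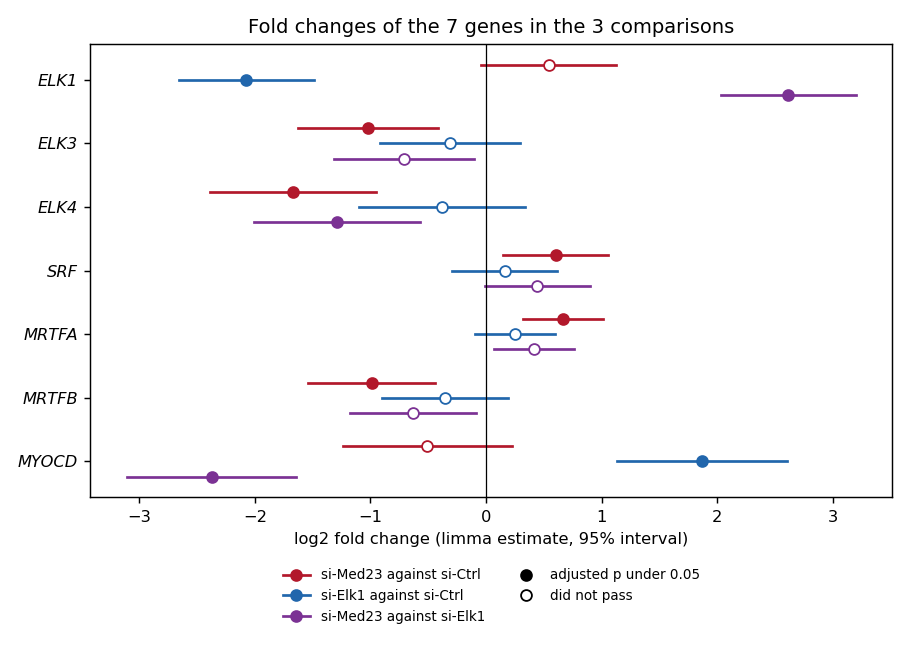
Log2 fold changes of the 7 members in the 3 comparisons, each knockdown against si-Ctrl and the knockdowns against each other, with 95% intervals from limma (n = 3 arrays per group) and filled points where the adjusted p is under 0.05. In si-Elk1 the intervals of ELK1 (-2.66 to -1.49) and MYOCD (1.13 to 2.60) exclude 0 and the other 5 include it. The positive values of SRF and MRTFA in si-Med23 turn negative under poly-A spike scaling.

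The oligos against ELK1 did not give one pattern. On the representing probe sets, oligo C read -0.92 for ELK3, -1.02 for ELK4 and -0.85 for MRTFB relative to the control mean. Oligos A and B read -0.03 and 0.02 for ELK3, 0.03 and -0.15 for ELK4, and -0.07 and -0.14 for MRTFB. MED23 moved with the values of the representing probe sets, at -0.95 with oligo C and at -0.26 and -0.12 with oligos A and B. On those probe sets the array of oligo C was thus low in the same 3 genes that fell in si-Med23. On the representing probe sets alone, oligo C read -1.60 for ELK1 where A and B read -2.35 and -2.27, and 1.48 for MYOCD where they read 2.11 and 2.01, the smallest shift of the 3 oligos for each, although ELK1 210376_x_at did not keep that order. The part of MED23 or of array quality in these values was not tested. Without oligo C, ELK1 and MYOCD still passed in si-Elk1 (-2.31 with adjusted p = 0.0127, and 2.06 with adjusted p = 0.0399), and the changes of ELK3, ELK4 and MRTFB were -0.0047, -0.06 and -0.11.

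**Figure D3:**
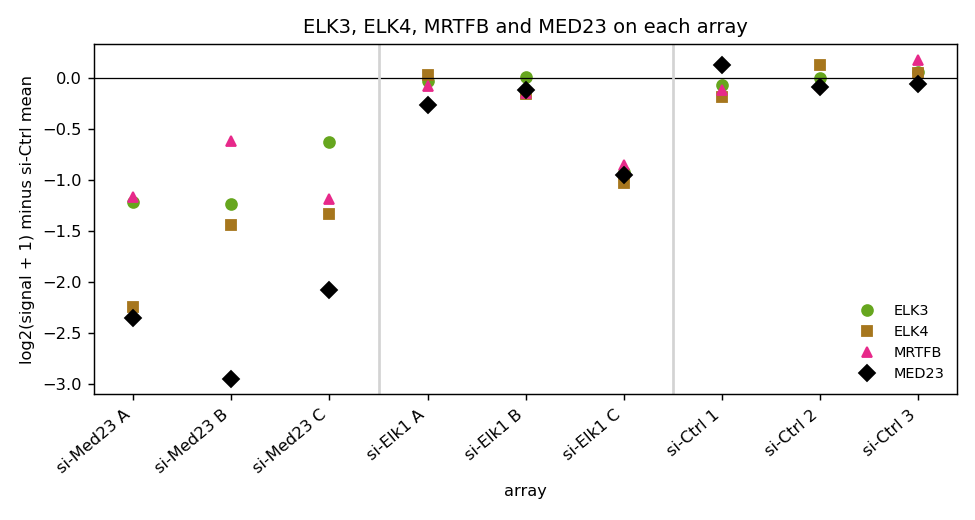
Log2(signal + 1) of ELK3, ELK4, MRTFB and MED23 on every array minus the mean of the 3 si-Ctrl arrays, from the probe set that represents each gene. There is 1 point per gene and array, with si-Med23 and si-Elk1 left of si-Ctrl. The si-Elk1 oligo C array has values of -0.92, -1.02 and -0.85 for ELK3, ELK4 and MRTFB, where oligos A and B lie between -0.15 and 0.03.

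The knockdowns were also set against each other, a comparison that asks where the knockdowns differ and takes no control as its baseline. ELK1 was higher in si-Med23 than in si-Elk1 (2.61 ± 0.26, a 6.12-fold difference, limma adjusted p = 0.00267), ELK1 being the target in the other arm. ELK4 (-1.29 ± 0.32, adjusted p = 0.0259) and MYOCD (-2.37 ± 0.32, adjusted p = 0.00558) were lower in si-Med23 than in si-Elk1. Here 21.7% of all genes passed, 9.54% higher and 12.2% lower, and 3 of the 7 members did. MYOCD in si-Med23 was 19.3% of its si-Elk1 level, rank 21 among all tested genes by the size of the fall. The changes of ELK3 (-0.71, adjusted p = 0.0855), MRTFB (-0.63, 0.0876), MRTFA (0.42, 0.0792) and SRF (0.44, 0.135) did not pass, although the MRTFA arrays did not overlap.

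The array of si-Elk1 oligo C decided several of these differences. Without it 6 members passed: ELK3 (-1.02, adjusted p = 0.00761), ELK4 (-1.61, 0.00534), MRTFB (-0.88, 0.0130) and MYOCD (-2.57, 0.00298) were lower in si-Med23, and ELK1 (2.85, 0.00143) and MRTFA (0.50, 0.0406) were higher. The MRTFA difference turns to -0.56 with poly-A spike scaling of all 9 arrays. The ELK4 difference was lost without si-Med23 oligo A (adjusted p = 0.0640) or B (0.0504), without si-Elk1 oligo A (0.0882) or B (0.0870), and when the si-Ctrl arrays were kept out of the fit (0.0617). It was also lost with no filter on dim genes (0.0693) and with the mean of the 7 ELK4 probe sets, which moved it to -0.42 (adjusted p = 0.264). With the mean of all probe sets MRTFA passed instead (1.47, adjusted p = 0.00860).

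The 26 probe sets were also tested without a filter, among 54613 probe sets. In si-Med23 against si-Ctrl 3 passed, beside 7.89% of all probe sets: ELK4 225159_s_at and ELK4 238761_at were lower and MRTFA 215292_s_at higher. The same test gave an unadjusted p under 0.05 for 13 of the 26, beside 14478 of all 54613 probe sets. All 3 calls were lost without any 1 si-Ctrl or si-Med23 array, which left 0 member probe sets that passed, while leaving out si-Elk1 oligo C gave 6. ELK4 238761_at, another bright probe set, read 6.17, 6.61 and 6.92 in si-Med23, against 8.77, 8.44 and 8.44 in si-Ctrl (-1.98 ± 0.44, adjusted p = 0.0401). All 4 ELK4 probe sets above the filter level had negative values in si-Med23, and the 3 dimmer ones did not agree in sign.

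The coactivator probe sets kept 1 direction per gene in si-Med23. All 5 MRTFA probe sets had positive values with the deposited scaling, from 0.48 to 2.14, and all of these but that of 215292_s_at turn negative under the poly-A spike shift of 1.61. MRTFA 215292_s_at read 7.79, 7.41 and 7.74 in si-Med23, against 5.48, 5.41 and 5.61 in si-Ctrl (2.14 ± 0.42, adjusted p = 0.0309), with the controls below the filter level. All 5 MRTFB probe sets had negative values, from -1.87 to -0.16, although 4 of the 5 are below that level.

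In si-Elk1 against si-Ctrl 0 of the 26 member probe sets passed by limma, beside 0.0787% of all probe sets. An unadjusted p under 0.05 was found for 8 of the 26, beside 6424 of all 54613 probe sets. These 8 include ELK1 203617_x_at (adjusted p = 0.0728) and MYOCD 237206_at (0.151). That fit has more tests and its own moderated spread, with an SE for the ELK1 value of 0.29, against 0.26 among the genes. Over all 19775 genes with no filter ELK1 still passed (adjusted p = 0.0288). In si-Med23 against si-Elk1 12 had an unadjusted p under 0.05, beside 11870 of all 54613 probe sets. After adjustment 2 passed, ELK1 203617_x_at higher and MYOCD 237206_at lower, beside 0.419% of all probe sets. Without si-Elk1 oligo C there were 5, without si-Med23 oligo C 1, and without any other single array 0. Antisense transcripts MYOCD-AS1 and MRTFA-AS1 have probe sets of their own, with means of 3.48 and 4.97, below the filter level of 6.05.

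**Figure D4:**
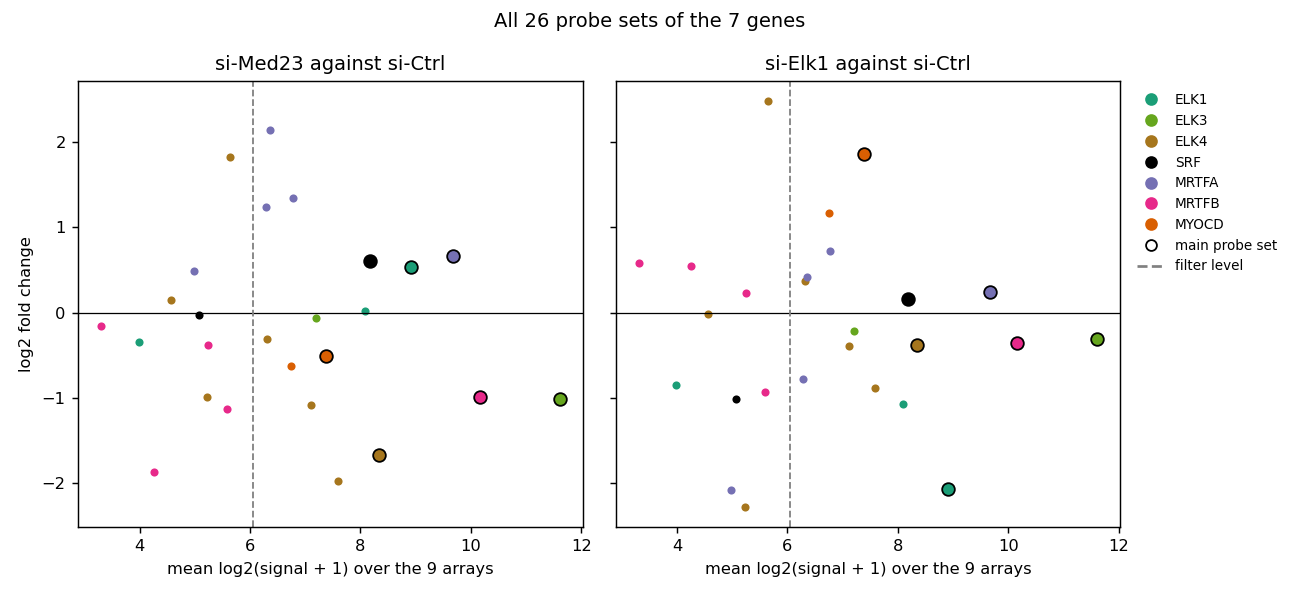
Log2 fold change of each of the 26 member probe sets in si-Med23 (left panel) and in si-Elk1 (right panel), both against si-Ctrl, plotted by the mean log2(signal + 1) of the probe set over the 9 arrays. Colour marks the gene, large rimmed points the probe set that represents it, and the dashed line the filter level, which 16 of 26 reach. The 5 MRTFA probe sets lie between 0.48 and 2.14 in si-Med23, a range that includes negative values under poly-A spike scaling, and both MYOCD probe sets lie at 1.18 and 1.87 in si-Elk1.

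Genes downstream of these factors were taken from lists named by role. Their counts are to be read beside the shares of all tested genes that passed, 39.8% in si-Med23, 4.26% in si-Elk1 and 21.7% between the knockdowns. Counts in si-Elk1 at an unadjusted limma p under 0.05 are to be read beside 3162 of all 12616 tested genes. Of 11 tested genes commonly described as early targets of ternary complex factors and SRF, 2 rose and 0 fell in si-Med23 (median 0.00, beside 0.09 for all genes), 0 passed by limma in si-Elk1 (5 with an unadjusted p under 0.05; median 0.26, beside 0.05), and 1 was higher and 1 lower in si-Med23 than in si-Elk1. The AP-1 subunit gene JUNB rose in si-Med23 (1.15 ± 0.24, adjusted p = 0.00764), and in si-Elk1 its value of 1.00 ± 0.24 did not pass (adjusted p = 0.0542). The early response gene IER3 rose in si-Med23 (0.81 ± 0.15, adjusted p = 0.00471), with both rises negative under poly-A spike scaling. EGR1, a zinc finger factor and a standard readout of ELK1 activity, was lower in si-Med23 than in si-Elk1 (-1.05 ± 0.28, adjusted p = 0.0336). Against si-Ctrl EGR1 passed in neither knockdown, with -0.55 ± 0.28 in si-Med23 and 0.50 ± 0.28 in si-Elk1. It was thus not called lower when ELK1 was reduced, and its positive si-Elk1 value is smaller than the poly-A spike shift of 0.64. NR4A1, an orphan nuclear receptor (1.08, adjusted p = 0.0942), and ATF3, a stress-induced factor (-1.19, 0.0762), had values in si-Elk1 that did not pass, as did DUSP5, an ERK phosphatase, in si-Med23 (0.51, 0.0844). The count of 0 in si-Elk1 was 2 without si-Med23 oligo B and 1 without oligo C. The count between the knockdowns was 0 without si-Med23 oligo A, si-Elk1 oligo A or si-Elk1 oligo B and 1 without si-Med23 oligo B or C.

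Of 18 tested genes described as MRTF and SRF targets, 8 rose and 1 fell in si-Med23 with the deposited scaling (median 0.40, beside 0.09 for all genes) in a comparison where 39.8% of all genes passed. That median was -1.21 with poly-A spike scaling and -0.10 with hybridization control scaling. ITGA5, an integrin of fibronectin binding, rose in si-Med23 (0.73 ± 0.12, adjusted p = 0.00396) and in si-Elk1 (0.65 ± 0.12, adjusted p = 0.0277). The si-Elk1 value is set against a poly-A spike shift of 0.64, nearly its whole size. VCL, the focal adhesion protein vinculin, rose in si-Med23 (0.52 ± 0.10, adjusted p = 0.00648), with both si-Med23 rises negative under poly-A spike scaling, whereas CALD1, caldesmon, fell (-0.95 ± 0.20, adjusted p = 0.00751). In si-Elk1 1 rose and 1 fell (median 0.14), and the gene that fell was CCN2, a matricellular growth factor (-0.67 ± 0.13, adjusted p = 0.0316). Between the knockdowns 6 were higher and 1 lower in si-Med23, with CCN2 (0.83 ± 0.13, adjusted p = 0.00775), the tropomyosin gene TPM1 (0.62 ± 0.11, 0.0111) and CCN1, another matricellular gene (0.96 ± 0.24, 0.0261), among the higher; these 3 values also turn negative under the poly-A spike shift of 0.97. The 9 calls in si-Med23 dropped to 4 without si-Ctrl replicate 1 or 3 or si-Med23 oligo B and to 5 without si-Ctrl replicate 2. Both calls in si-Elk1 were lost without any 1 si-Elk1 or si-Ctrl array. The 7 between the knockdowns dropped to 2 without si-Elk1 oligo A or B and to 3 without si-Med23 oligo B.

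Upstream of the members, the MAP kinase route held genes of both directions in si-Med23. Of 5 tested MAP kinase genes 2 rose and 2 fell, in a comparison where 39.8% of all genes passed. MAP2K2, an ERK-activating kinase, rose (0.85 ± 0.17, adjusted p = 0.00671; negative under poly-A spike scaling), and the JNK genes MAPK8 (-0.76 ± 0.18, 0.0117) and MAPK9 (-0.44 ± 0.12, 0.0215) fell. The 4 calls dropped to 2 without any 1 control or si-Med23 oligo B. In si-Elk1 0 of the 5 passed by limma, with 1 at an unadjusted p under 0.05, beside 3162 of all 12616 tested genes.

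Of 7 tested ELK1 cofactor genes 2 fell in si-Med23, MED23 itself and HDAC2, a deacetylase (-0.87 ± 0.13, adjusted p = 0.00276), and 0 passed by limma in si-Elk1 (1 with an unadjusted p under 0.05). EP300, an acetyltransferase, had a value of -0.31 that did not pass (adjusted p = 0.0656). Of 17 tested ETS genes outside the ternary complex subfamily 3 rose and 2 fell in si-Med23 (median 0.30, beside 0.09 for all genes), a smaller share than the 39.8% of all genes. In si-Elk1 0 of the 17 passed by limma. For both lists the counts in si-Elk1 at an unadjusted p under 0.05, here 5, stand beside 3162 of all 12616 tested genes. GABPA fell (-1.44 ± 0.27, adjusted p = 0.00558), as did ELF2 (-0.52 ± 0.13, 0.0167), and the epithelial factor ELF3 rose (0.79 ± 0.17, 0.00852; negative under poly-A spike scaling). This count of 5 was 3 without si-Ctrl replicate 2, 2 without replicate 3, and 8 without si-Elk1 oligo C. Neither of the 2 tested MEF2 genes, relatives of SRF, passed in any comparison, with values in si-Med23 of -0.10 for MEF2A and -0.38 for MEF2D.

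Members of these lists also differed between the knockdowns. Of the MAP kinase genes MAP2K2 was higher (0.56 ± 0.17, adjusted p = 0.0473) and MAPK8 lower (-0.58 ± 0.18, 0.0493) in si-Med23 than in si-Elk1, a count of 2 that was 4 without si-Elk1 oligo C and 0 without any other single array. Of the cofactors MED23 and HDAC2 (-0.66 ± 0.13, adjusted p = 0.0144) were lower, with 1 call left without si-Elk1 oligo A or B. Of the other ETS genes GABPA was lower (-1.10 ± 0.27, adjusted p = 0.0266), and ETS2 (1.09 ± 0.29, 0.0309) and ETV5, a target of ERK signalling (0.73 ± 0.16, 0.0195), were higher. Those 3 became 0 without si-Med23 oligo B or si-Elk1 oligo A or B, and 5 without si-Elk1 oligo C. The positive values of MAP2K2, ETS2 and ETV5 are set against a poly-A spike shift of 0.97, under which those of MAP2K2 and ETV5 turn negative.

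**Figure D5:**
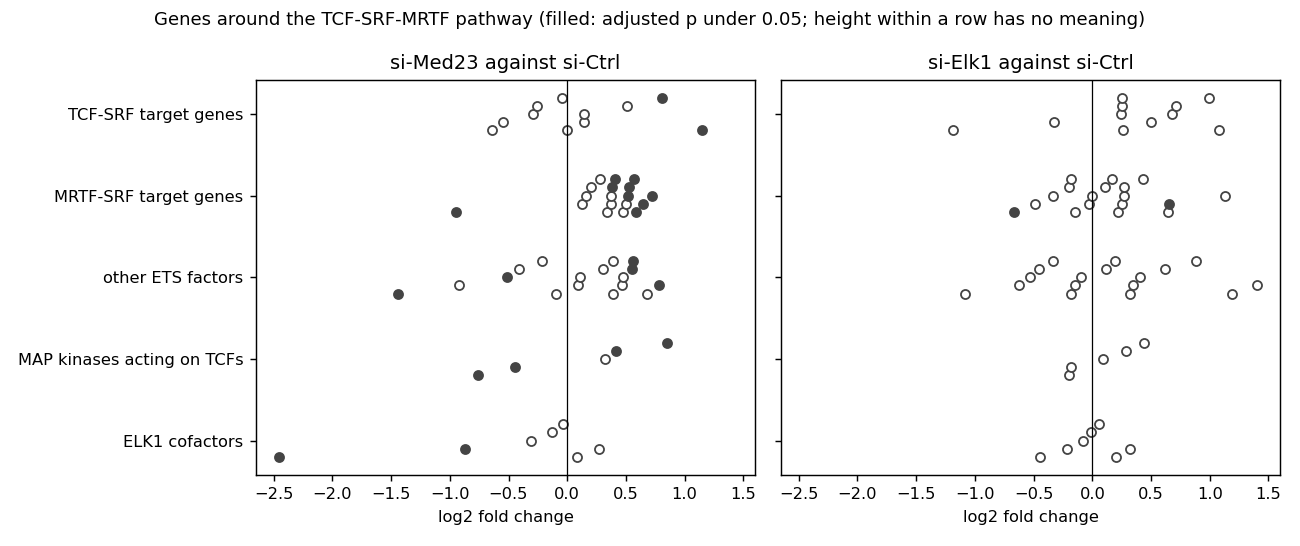
Log2 fold changes of the tested genes of 5 pathway lists in si-Med23 (left panel) and in si-Elk1 (right panel), both against si-Ctrl, 1 point per gene, filled where the adjusted p is under 0.05. The MRTF and SRF target list has a median of 0.40 in si-Med23, which is negative under scaling on either kind of control probe set, and the early target list has a median of 0.00.

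The genes most like each member over the 9 arrays were found by the root mean square difference of log2 signals centred on each gene's mean, as a description. ELK3 was matched most closely by OIP5-AS1 (0.075), MSI2 (0.076) and ADAM10 (0.083), and MRTFB by CKAP5 (0.076), SEC24B (0.095) and LGALSL (0.107). MRTFA was closest to DXO (0.076), ROMO1 (0.088) and MSRA (0.093), and SRF to MSTO1, LRFN3 and RSAD1 (0.118 to 0.127). ELK4 was closest to CEP192, TLK1 and TOR1AIP2 (0.164 to 0.179). ELK1 and MYOCD, with the widest ranges over the arrays (3.29 and 2.91), had looser matches, GREM1 (0.332), EFNB2 and SOX2 for ELK1 and CEMIP (0.361), GRHL3 and NAT16 for MYOCD. Among the members themselves SRF and MRTFA were closest (0.242), then ELK3 and MRTFB (0.287). All of these points share the 9 arrays and their scaling.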

How the data were processed

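A549 RNA was hybridized to 9 Affymetrix arrays, 3 per group, with groups and replicate numbers taken from the labels. The authors deposited linear signal intensities per probe set. RMA and MAS5 are the tools in the submitters' processing notes, which say neither what each did nor its version. In the values the 2% trimmed mean was 500 on each array, so a common change of total messenger RNA would not show. The genome build and detection calls are not given in the sources used here.

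Signals were analysed as log2(value + 1). Of 54675 probe sets, 62 are controls and 41091 carry 1 gene in the platform annotation. A gene was represented by its probe set with the highest mean, and genes under the median probe set mean (65.4, or 6.05 on the log2 scale) were dropped, so that 12616 of 19775 were tested. All 9 arrays entered 1 fit with lmFit and eBayes of limma 3.58.1 (R 4.3.3), tested two-sided, with Benjamini-Hochberg adjustment over the genes tested and a threshold of 0.05. A further fit took all 54613 probe sets other than controls with no filter. No arrays were identical. The fit was tested on simulated data.

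The members and gene lists were chosen with earlier results of these data known. Named genes are the members, MED23, up to 3 genes per list and comparison with the smallest p, and the 3 genes most like each member. ACTC1 was named as a muscle marker. Listed genes with no probe set of 1 gene were not analysed here, and 1 list is not reported here. Alternatives were other filters, scalings, pseudocounts, priors and probe set choices, array weights, a replicate block and each array left out.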

Additional observations from a re-analysis of the deposited data

How the results depend on the processing

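The 5 member calls in si-Med23 against si-Ctrl became 1 with the mean of all probe sets, where MRTFB was under the filter, and 3 to 5 when an array was left out. With poly-A spike scaling all 7 members were called lower. Median centring or array weights gave 6, with ELK1 also called higher. Hybridization control scaling gave 4, all lower, with SRF and MRTFA lost and MYOCD gained. The 2 in si-Elk1 against si-Ctrl became 1 with no filter, and 1 to 2 when an array was left out. The count was also 1 with a stricter filter, under which MYOCD was not tested. It was 1 as well without _x_at and _s_at probe sets, where ELK1 has none left to test. With poly-A spike scaling the count was 3, with MRTFB also called lower. The 3 in si-Med23 against si-Elk1 became 1 without _x_at and _s_at probe sets, 5 with median centring, hybridization control scaling or a trended and robust prior, 6 with poly-A spike scaling or array weights, and 2 to 6 when an array was left out; with the mean of all probe sets the count of 3 lost ELK4 and gained MRTFA. The log2 fold change of ELK1 in si-Elk1 ranged from -2.31 to -1.93 over the leave-one-out fits and passed in 9 of 9, and it was -1.33 with the mean of all probe sets.

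Member probe sets that passed in si-Med23 against si-Ctrl (3) became 5 with median centring, 6 with a pseudocount of 16 and 0 to 6 when an array was left out. In si-Elk1 against si-Ctrl the 0 became 1 with a pseudocount of 16. In si-Med23 against si-Elk1 the 2 became 1 with quantile normalization, 7 with median centring, 5 with a pseudocount of 16 and 0 to 5 when an array was left out.

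Signs turned as follows, and each scaling does so by its construction. With poly-A spike scaling, the si-Med23 against si-Ctrl values became -1.07 for ELK1, -1.01 for SRF and -0.95 for MRTFA. The si-Elk1 against si-Ctrl values became -0.48 for SRF and -0.39 for MRTFA, and the si-Med23 against si-Elk1 values -0.53 and -0.56. With hybridization control scaling SRF in si-Elk1 was -0.023. With the mean of all probe sets SRF and MRTFA in si-Elk1 were -0.43 and -0.29, and the cause was not tested. Over all genes, the higher and lower calls in si-Med23 against si-Ctrl were 18 and 11880 with poly-A spike scaling, 4758 and 1681 after median centring, and 409 and 5205 on the hybridization controls (2561 and 2462 as deposited). In the same order those in si-Elk1 against si-Ctrl were 95 and 4898, 239 and 326, and 166 and 258 (387 and 150 as deposited), and those in si-Med23 against si-Elk1 33 and 10219, 4685 and 553, and 359 and 3943 (1204 and 1535).

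Over all settings, all-gene calls ran from 3174 to 11898 in si-Med23 against si-Ctrl (5023 as reported), from 109 to 4993 in si-Elk1 against si-Ctrl (537) and from 769 to 10252 between the knockdowns (2739), each lowest when 1 array was left out (si-Ctrl replicate 3 in both control comparisons, si-Elk1 oligo A between the knockdowns) and highest with poly-A spike scaling. Counts of called pathway genes stayed within 1.5 times the reported count in 291 combinations of list, comparison and setting and moved further in 123. The 291 include combinations where a reported count of 0 stayed 0, as for the MEF2 genes, so they do not measure how stable the calls are.

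The replicate numbers gave no sign of pairing the arrays. Same-numbered arrays had correlations of deviations from -0.18 to 0.05, and differently numbered arrays of different groups from -0.06 to 0.12. So few arrays cannot show that no pairing exists. With the replicate number as a block, SRF lost its call in si-Med23 (adjusted p = 0.0581) and ELK4 that between the knockdowns (0.0539), and 0 member probe sets passed in any comparison. Over all genes the block gave 162 calls in si-Elk1 against si-Ctrl and 1319 between the knockdowns, against 537 and 2739 without it. For dim probe sets, signal near background limits what can be read from a fold change.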
